A study of Mus musculus with 6 samples.

Results

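Open chromatin was examined at 10 genes of the immediate early response in mouse pancreatic islets: the AP-1 subunits Fos, Fosb, Jun, Junb and Jund, the zinc finger factors Egr1, Klf6 and Klf4, the short-lived nuclear protein gene Ier2, and Dusp1, a phosphatase that switches off MAP kinases. They were chosen by name, with earlier results of these data known. They were matched in a RefSeq table of the GRCm38.p6 build, 10 of 21887 protein-coding genes. A gene was called marked in a library when an ATAC-seq peak lay within 1000 bp of either of its ends, which is called a gene-end peak here. Peaks within 20 kb of the gene were listed as well.

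Immediate early genes are transcribed within minutes of a stimulus, without new protein synthesis, from promoters that are usually open beforehand. Fos and Jun proteins pair into the AP-1 factor, Egr1 and the Krüppel-like factors bind GC-rich sites, and Dusp1 closes the loop by removing phosphate from the kinases that induced the genes. In beta cells glucose and other depolarising signals induce several of them, and tissue handling does so in many cell types.

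The data were 6 ATAC-seq libraries, 2 in each of 3 groups, from islets of 16-week-old mice. The control-GFP group held islets of mice labelled wildtype that received the adenovirus Ad-GFP. The knockout-GFP group held islets of mice labelled BetaRicKO, which the study's title ties to absence of Rictor, without which the kinase complex mTORC2 does not form, with the same Ad-GFP. The knockout-Acsl4 group held BetaRicKO islets that received Ad-Acsl4, a virus carrying the acyl-CoA synthetase gene Acsl4. In all 3 groups the islets were hand-picked, cultured in RPMI 1640 and digested with trypsin, the virus was applied ex vivo for 48 h, and 50 islets were lysed. The labels give neither the promoter that drives the deletion nor whether replicate libraries stem from different mice, so spread between 2 libraries may be technical. An islet holds several cell types, so fewer cells with an open site and less opening in each cell cannot be told apart.

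Libraries are named by their labels and replicate numbers, and all directions hold for the labels as deposited. The peak lists were unequal. They ran from 525 peaks (knockout-Acsl4 1) to 5874 (knockout-Acsl4 2), and 5.29% of the peaks of the latter lay at gene ends against 21.7% to 75.5% in the other lists. The deposited score per peak, explained below, had a median of 1.54 in knockout-Acsl4 2, close to the smallest score of that list, 1.313. In the other lists the median was 2.77 to 6.26. Rictor carried no peak within 20 kb in any library, and Acsl4 carried peaks in or near the gene in control-GFP 1 and knockout-GFP 1 and in neither library that received its virus, so the lists do not check the genotype or the virus. Of 10 beta cell markers, 2, Mafa and Nkx6-1, had a gene-end peak, both in control-GFP 1 and knockout-GFP 2. All genes were marked there at 16.7% and 17.3%, so this count is near the background and does not check the tissue. Ins1, Ins2, Iapp and Pdx1 had none in any library. The 23 markers of other endocrine, acinar, ductal, endothelial, stromal and immune cells had 0 gene-end peaks in the 6 libraries. Within 20 kb, 3 beta cell markers and 1 immune marker were marked in control-GFP 1 and knockout-GFP 2, and 1 immune marker in knockout-GFP 1. In knockout-Acsl4 2 the beta cell, acinar, ductal, endothelial and immune lists had 1 each.

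The upstream sequences of 5 of the genes are shown first because they carry most of the gene-end peaks described below, or, for Dusp1, because no peak was called there. RefSeq promoter windows, 250 bases before to 50 after the start of transcription on GRCm38.p6, were found for 8 of the 10 genes, and the 250 upstream bases are printed 5′ to 3′. Capitals mark matches on either strand to 4 motifs. These are TGACG, the core of the cyclic AMP response element (CRE), GGGCGG, which is called the GC box, CCAAT, a sequence bound by NF-Y, and TATAAA, the TATA box.
Klf6, chr13:5861239-5861488, plus strand: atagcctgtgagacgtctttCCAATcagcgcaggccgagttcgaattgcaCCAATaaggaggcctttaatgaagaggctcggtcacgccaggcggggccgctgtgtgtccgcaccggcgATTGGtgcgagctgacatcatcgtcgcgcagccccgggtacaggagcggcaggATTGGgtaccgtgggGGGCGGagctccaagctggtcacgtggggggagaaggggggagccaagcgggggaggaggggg
Fos, chr12:85473640-85473889, plus strand: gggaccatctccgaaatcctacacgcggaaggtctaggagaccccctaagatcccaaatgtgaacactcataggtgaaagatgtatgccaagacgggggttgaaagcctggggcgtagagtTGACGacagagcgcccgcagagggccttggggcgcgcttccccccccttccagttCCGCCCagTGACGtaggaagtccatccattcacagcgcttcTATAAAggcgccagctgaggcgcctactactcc
Jun, chr4:95052223-95052472, minus strand: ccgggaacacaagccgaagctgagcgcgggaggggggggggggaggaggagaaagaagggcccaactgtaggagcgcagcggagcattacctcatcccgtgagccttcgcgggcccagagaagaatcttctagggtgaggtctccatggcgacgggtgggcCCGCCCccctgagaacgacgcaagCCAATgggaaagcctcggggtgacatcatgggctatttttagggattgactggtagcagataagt
Klf4, chr4:55532476-55532725, minus strand: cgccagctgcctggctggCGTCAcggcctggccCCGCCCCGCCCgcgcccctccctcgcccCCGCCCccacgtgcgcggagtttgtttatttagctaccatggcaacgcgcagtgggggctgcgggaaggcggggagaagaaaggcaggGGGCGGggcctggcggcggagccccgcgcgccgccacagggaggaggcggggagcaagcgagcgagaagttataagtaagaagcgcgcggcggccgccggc
Dusp1, chr17:26508473-26508722, minus strand: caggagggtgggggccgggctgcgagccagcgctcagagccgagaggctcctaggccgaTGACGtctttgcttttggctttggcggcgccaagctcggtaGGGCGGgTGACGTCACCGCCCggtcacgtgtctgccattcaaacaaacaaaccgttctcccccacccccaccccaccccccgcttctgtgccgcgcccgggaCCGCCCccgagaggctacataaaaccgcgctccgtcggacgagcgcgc

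The set was marked more often than protein-coding genes in general in the 4 libraries of islets without the Acsl4 virus, and in neither library with it. A gene-end peak was called at 5 of 10 members in control-GFP 1 (50%, exact Clopper-Pearson 95% interval 18.7 to 81.3), against 16.7% of all protein-coding genes. In control-GFP 2 it was called at 2 members (20%, interval 2.52 to 55.6), against 2% of all genes. In knockout-GFP 1 it was likewise called at 2 members, against 8.2% of all genes, a share that lies inside the interval. In knockout-GFP 2 it was called at 6 (60%, interval 26.2 to 87.8), against 17.3%. Both knockout-Acsl4 libraries marked 0 of 10, with an upper bound of 30.8% by the same exact interval and of 30% by the limit of 3 counts of the total that a count of 0 allows. All genes were marked there at 1.02% and 1.58%, shares at which 10 genes would give 0.102 and 0.158 marked members. A count of 0 in these 2 lists is therefore near the background and is not a result about the set. The intervals cover counting error only, and the members are not a random draw from the genome. They were chosen with earlier results of these data known, so setting their shares against all genes is no test of enrichment.

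**Figure D1:**
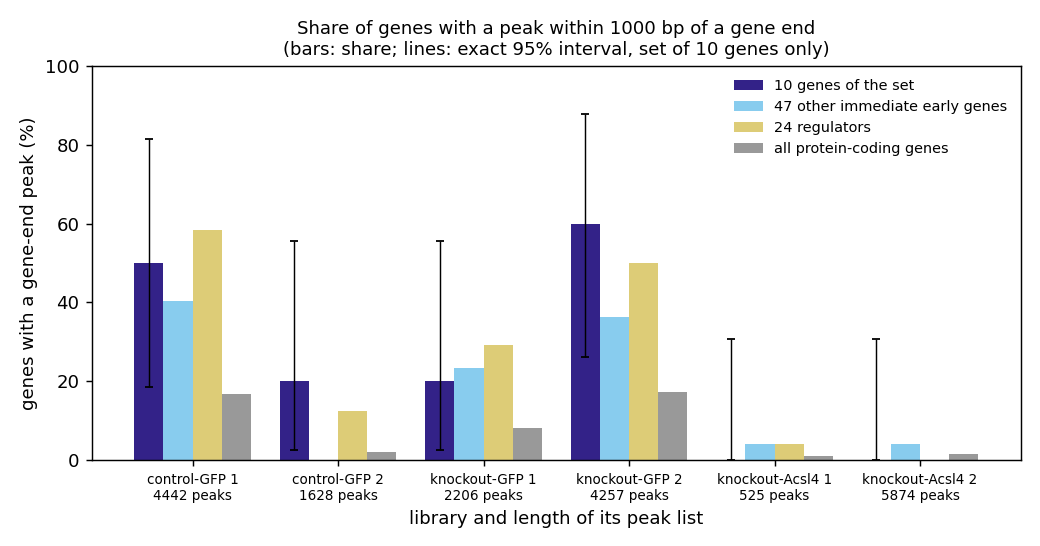
Share of genes (%) with a peak within 1000 bp of a gene end in each of the 6 libraries, for the 10 genes of the set, 47 other immediate early genes, 24 regulators and all protein-coding genes; bars are shares, and lines are exact 95% intervals for the set of 10. The set stands at 50% and 60% in control-GFP 1 and knockout-GFP 2, at 20% in control-GFP 2 and knockout-GFP 1, and at 0 in both knockout-Acsl4 libraries.

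Klf6, a Krüppel-like zinc finger activator, was the member called most often. Its gene-end peak had a score of 15.9 in control-GFP 1, 1.98 in control-GFP 2, 7.25 in knockout-GFP 1 and 12.3 in knockout-GFP 2. No peak was called in knockout-Acsl4 1 and 2. The score is the authors' own value per peak, read as −log10 of the q-value, and for single peaks only its rank within a list is compared. In score percentiles, from 0 for the weakest to 100 for the strongest peak of a list, these were 89.8, 33.2, 81 and 85.2. The Klf6 peak thus ranked high in 3 of the 4 lists and low in control-GFP 2, where it stood 0.67 above the smallest deposited score. A gene-end peak in exactly these 4 libraries was shared by 171 genes, 0.781% of all, and over all genes 1.62% had one in 4 or more libraries.

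The 4 Klf6 peaks lay directly upstream of the gene (chromosome 13, 5861489 to 5870393). They spanned 5861242 to 5861466 in control-GFP 1, 5861079 to 5861380 in control-GFP 2, 5861192 to 5861406 in knockout-GFP 1 and 5861255 to 5861441 in knockout-GFP 2. All 4 shared 126 bp, from 234 to 109 bp upstream of the start. The promoter printed above holds 4 CCAAT matches, and 1.06% of the 32851 promoters in the table hold 4 or more, a feature picked after the sequence was seen. Of these, the matches that begin 230, 200 and 131 bp upstream lie inside the stretch common to the 4 peaks. The fourth, 78 bp upstream, was covered in control-GFP 1 and knockout-GFP 2, as was the GC box 63 bp upstream.

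Klf4, a Krüppel-like factor known for its part in reprogramming and differentiation, was called in a pair of libraries. Its peak had a score of 4.37 (percentile 82.6) in control-GFP 2 and 5.9 (47.4) in knockout-GFP 2, and the other 4 libraries had none. The peaks spanned 55532607 to 55532785 and 55532471 to 55532667 on chromosome 4, and overlapped by 61 bp, which is less than 50% of either. The start of the lncRNA gene Gm12506, which runs from 55532710, falls inside the former. This combination of libraries occurred at 24 genes (0.11% of all), and Klf4 was the only member marked in control-GFP 2 and not in control-GFP 1.

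Egr1, the zinc finger factor induced by glucose and growth factors, had the member peak of the highest rank. Its peak in control-GFP 1 spanned 34860464 to 34861143 on chromosome 18, was 680 bp wide and the widest of the 25 member peaks, with a score of 19 (percentile 93). In knockout-GFP 2 it was 449 bp wide, 34860707 to 34861155, with a score of 4.59 (31.7). No peak was called in the other 4 libraries. Both peaks lay next to the lower end of the gene (34861207 to 34864956) and ended 64 and 52 bp before it.

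**Figure D2:**
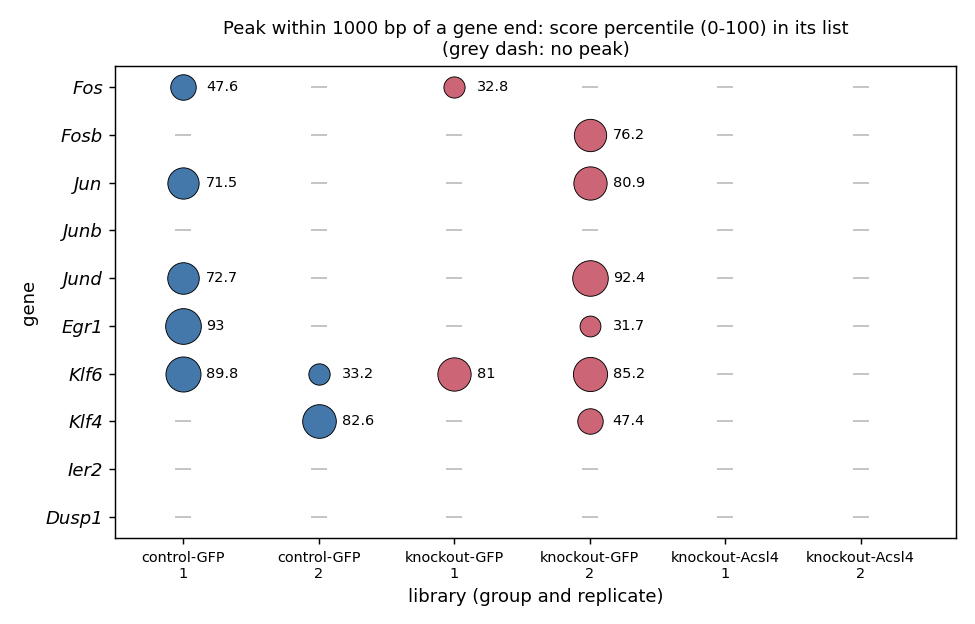
Score percentile, within its own list, of the strongest peak within 1000 bp of a gene end, for the 10 genes (rows) in the 6 libraries (columns, coloured by group); the area of a disc grows with the percentile printed beside it, and a grey dash means that no peak was called. Klf6 fills 4 columns, Junb, Ier2 and Dusp1 fill none, and both knockout-Acsl4 columns are empty.

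Among the AP-1 genes, Jun and Jund shared the combination seen for Egr1. Jun, the central AP-1 partner, had a score of 8.89 (percentile 71.5) in control-GFP 1 and 11.1 (80.9) in knockout-GFP 2. The peaks spanned 95052139 to 95052632 and 95052234 to 95052511 on chromosome 4, and the wider one crossed the start of the gene. Both covered the GC box 89 bp and the CCAAT 65 bp upstream in the sequence above, and the lncRNA gene Junos overlaps the same region. Jund, the AP-1 subunit known for steady expression, had a score of 9.07 (72.7) in control-GFP 1 and 16.1 (92.4) in knockout-GFP 2.

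The Jund peaks lay inside the gene rather than at its annotated start. They spanned 70698569 to 70698912 and 70698564 to 70698872 on chromosome 8, from 830 and 825 bp downstream of the start, and no peak of any library touched the Jund promoter window. That window had a GC content of 46.7% and an observed-to-expected CpG ratio of 0.18, the lowest of the 8 members. The other 7 had 58.7% to 74.3% GC and CpG ratios of 0.59 to 0.97, all above the medians of all promoters (52.7% and 0.38). The combination of control-GFP 1 and knockout-GFP 2 and no others occurred at 1154 genes, 5.27% of all.

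Fos, the inducible partner of Jun, had peaks at 3 places. At the promoter the score was 5.65 (percentile 47.6) in control-GFP 1, from 85473737 to 85473930 on chromosome 12, and 3.26 (32.8) in knockout-GFP 1, from 85473570 to 85473767. These overlapped by 31 bp only. The former covered both TGACG matches, 129 and 66 bp upstream, and the TATA box 33 bp upstream, while the latter ended 123 bp upstream and covered the first TGACG alone. No promoter peak was called in knockout-GFP 2, the list in which most other members were marked.

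Both flanks of Fos were called in more libraries than its promoter. The upstream region, 85455227 to 85455555, had scores of 10.1 (percentile 76.4) in control-GFP 1, 6.51 (76) in knockout-GFP 1 and 9.66 (74.3) in knockout-GFP 2. It begins 18663 bp before the start and lies inside the lncRNA gene Gm38543. The downstream region, 85485976 to 85486181, had scores of 4.99 (42.5), 2.37 (16) and 6.7 (53.5) in the same libraries, and lies 8702 bp beyond the far end of the gene. The nearest end of another protein-coding gene, Tmed10, was 80510 bp from the upstream region and 111259 bp from the downstream one. In all 3 lists the upstream region ranked above the downstream region, and in control-GFP 1 and knockout-GFP 1 it ranked above the promoter too. No flank peak was called in control-GFP 2 or in either knockout-Acsl4 library.

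**Figure D3:**
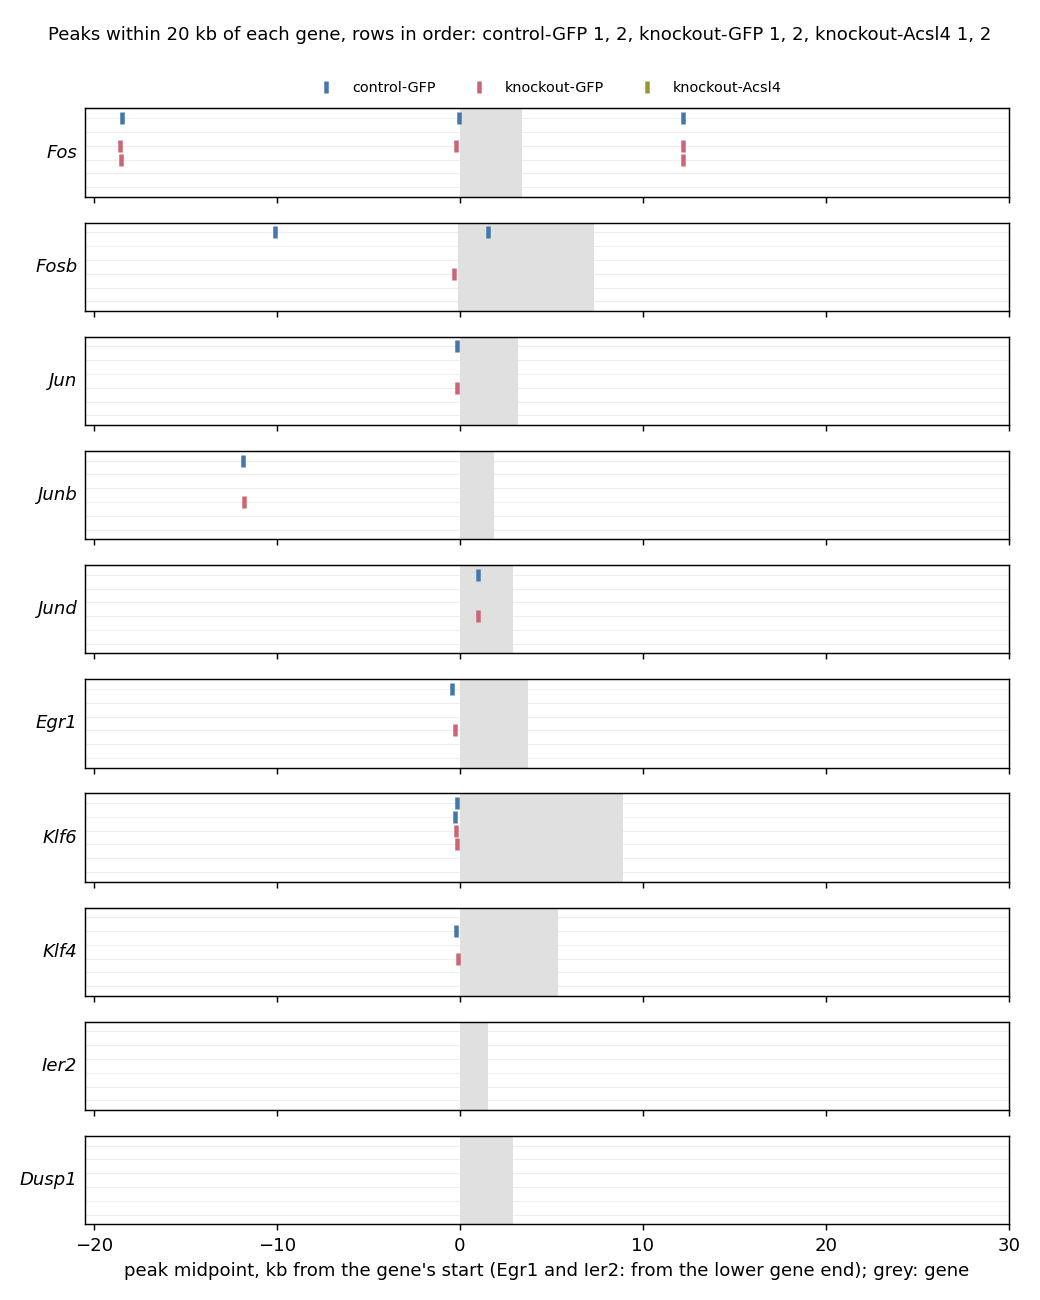
Midpoints of called peaks within 20 kb of each gene, in kb from the start of transcription (Egr1 and Ier2, from the lower gene end), with 1 row for each library and the gene in grey. Fos has 3 places with peaks, Klf6 a single place called in 4 libraries, and the 2 rows of knockout-Acsl4 are empty for every gene.

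Fosb, an inducible relative of Fos, had 3 regions, each called in 1 library. In knockout-GFP 2 a peak was called at 19310280 to 19310413 on chromosome 7 with a score of 10 (percentile 76.2), 162 bp outside the gene. In control-GFP 1 one was called inside the gene, 19308221 to 19308759, with a score of 4.85 (41.5), and one 9973 bp beyond it, 19320091 to 19320242, with 5.84 (50.8). The peak inside the gene lies 1359 bp from its nearer end, outside the 1000 bp window.

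Junb, an AP-1 subunit that often opposes Jun, had no gene-end peak. A region 11701 bp upstream, 84990449 to 84990741 on chromosome 8, was called in control-GFP 1 with a score of 4.28 (percentile 34.2) and in knockout-GFP 2 with 4.93 (37). This region lies inside the neighbour Hook2, a cargo adaptor of dynein, 1673 bp from a Hook2 end, and cannot be assigned to Junb by position. Ier2 (chromosome 8, 84661331 to 84662852) and Dusp1 (chromosome 17, 26505591 to 26508472) had no peak within 20 kb in any of the 6 libraries.

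A gene-end peak in 2 or more libraries was found at 6 of the 10 members, against 13.9% of all genes. In all, 25 peaks within 20 kb of the members merged into 12 regions, 7 at gene ends, 4 in flanks and 1 inside a gene. Of the 12, 9 were called in 2 or more libraries, against 23.1% of all merged regions. Of the 7 at gene ends, 6 were called in 2 or more libraries, against 50.9% of all gene-end regions. Of the other 5, the 2 Fos flanks and the Junb flank were called in 2 or more, against 9.85% of all regions that lie within 20 kb of a gene and at no gene end. The shares over all regions include those of knockout-Acsl4 2, the longest list, which held no member peak, so they are not a matched background. The lists of control-GFP 1 and knockout-GFP 2 shared 7 of the 12 regions, 70% of the 10 in the former and 77.8% of the 9 in the latter. Over all regions they shared 2583, which is 58.4% and 61.2%. Members with any peak within 20 kb numbered 7 in control-GFP 1 (29% of all genes), 2 in control-GFP 2 (6.83%), 2 in knockout-GFP 1 (15.9%) and 8 in knockout-GFP 2 (30.4%). The count was 0 in knockout-Acsl4 1 (2.48%) and knockout-Acsl4 2 (16.9%). At this last share 10 genes would give 1.69. The window takes in the whole gene, so longer genes have more room for a peak. The members are 1522 to 8905 bp long, and the shares of all genes are not matched for length. The count of 0 is therefore not a result about the set.

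**Figure D4:**
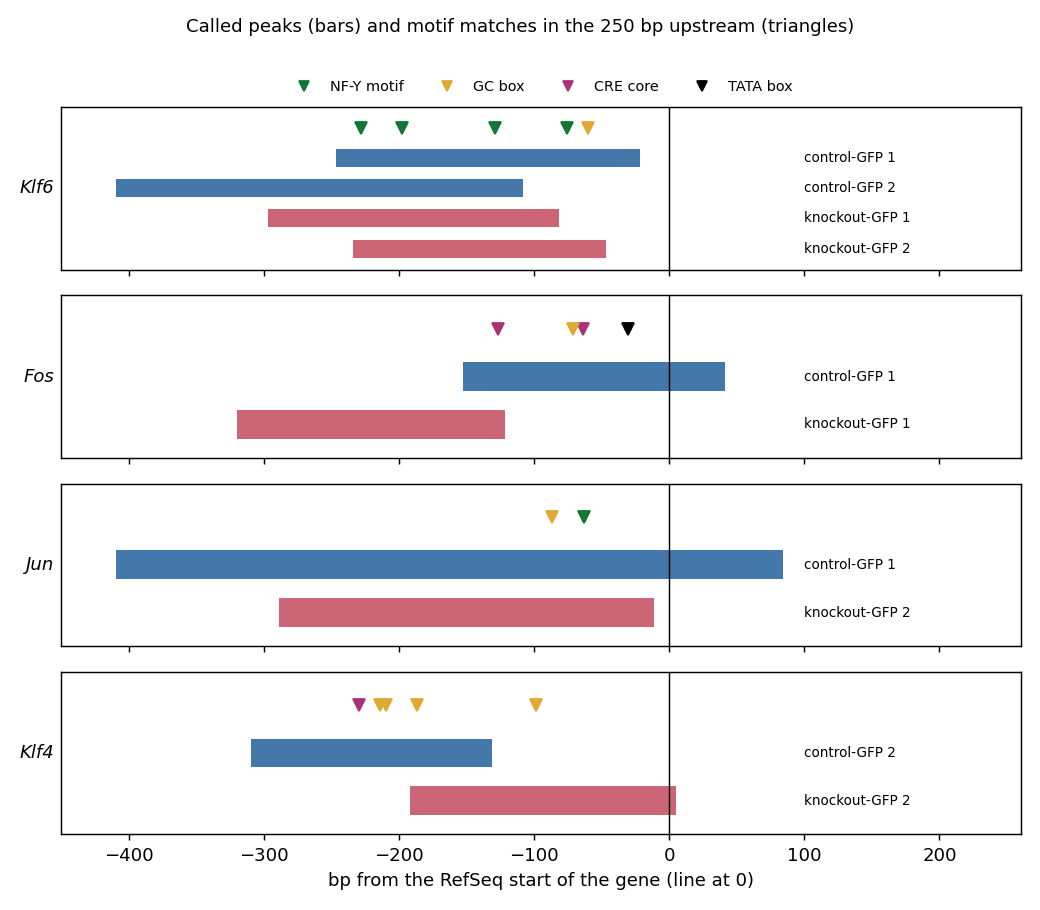
Called gene-end peaks (bars, coloured by group) of Klf6, Fos, Jun and Klf4 in bp from the RefSeq start (line at 0), with matches to 4 motifs in the 250 bp upstream as triangles (CCAAT is the NF-Y motif, TGACG the CRE core). The 4 Klf6 bars share a stretch that holds 3 CCAAT matches, and the pairs of bars of Fos and of Klf4 overlap by 31 and 61 bp.

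Motif matches were compared with all 32851 RefSeq promoters of the same length, with no test. These were not matched to the members for base composition. In GC content and in CpG ratio, 7 of the 8 member promoters lie above the median of all. TGACG occurred in 5 of the 8 member promoters (Fos, Fosb, Junb, Klf4 and Dusp1), against 20.8% of all promoters. The complete CRE, TGACGTCA, a binding sequence of CREB proteins that also contains TGACG on both strands, occurred only at Dusp1 among the 8, against 1.79% of all. The GC box GGGCGG occurred in 6, against 35.7%, CCAAT in 3 (Jun, Junb and Klf6), against 37.4%, and TATAAA in 2 (Fos and Junb), against 13.6%. Of these 2, only the Fos match lies upstream, while the Junb match lies 6 bp downstream of the start. The Ets core GGAAG occurred in 6, against 71.4%, and the FOXO sequence TGTTTAC at Junb alone, against 3.65%. The AP-1 sequence TGAGTCA and the CArG box, bound by serum response factor, had no match in these windows, against 5.2% and 1.63%. Sequence more than 250 bp upstream, and any at Egr1 and Ier2, which have no window, was not searched. These genes are thus not shown to lack such sites. Of the 5 with TGACG, Fos, Fosb and Klf4 had a gene-end peak, and Junb and Dusp1 had none. Jun, Jund and Klf6, without TGACG, had one too. Whether motif matches go with called peaks was not tested.

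What the BetaRicKO genotype changes under the same virus is addressed by knockout-GFP against control-GFP, and no member separated these groups. The mean number of marked members was 4 ± 2.83 in knockout-GFP and 3.5 ± 2.12 in control-GFP (SD, n = 2 each), a difference of 0.5 that is smaller than either spread, with counts of 2 and 6 against 5 and 2. No member had a gene-end peak in both knockout-GFP libraries and neither control-GFP library, against 1.04% of all genes, and none had the reverse, against 0.0914%. With 10 genes these shares leave little room for a member. Only Klf6 was marked in both libraries of either group. Fosb had a gene-end peak in knockout-GFP 2 alone, but it also had the 2 peaks in control-GFP 1 given above, and with a window of 3000 bp it was marked in that library too. At equal list lengths the difference was -0.5, and without knockout-GFP 2 or control-GFP 2 it was -1.5 or -1.

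Knockout-Acsl4 against knockout-GFP asks what the Acsl4 virus adds in BetaRicKO islets. The marked members numbered 0 and 0 against 2 and 6, a difference of -4, and the groups did not overlap. Klf6 was the only member with a gene-end peak in both knockout-GFP libraries and neither knockout-Acsl4 library, against 5.79% of all genes. Of the 1447 genes marked in both knockout-GFP libraries, 87.6% had the same pattern, so Klf6 did what most such genes did. With the window of 20 kb, Fos joined Klf6, against 9.35% of all genes. No member had the reverse pattern, against 0.00914%. Over all genes the mean share marked was 1.3% in knockout-Acsl4 and 12.8% in knockout-GFP, and the part of list length and of the low gene-end share in the members' difference was not tested. At equal list lengths, at which Klf6 lost its pattern, the difference was -1, with 0 and 0 marked members against 1 and 1.

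The last contrast, knockout-Acsl4 against control-GFP, differs in genotype and virus together and shares its knockout-Acsl4 libraries with the one before. The marked members numbered 0 and 0 against 5 and 2, a difference of -3.5, or -1.5 at equal list lengths. Over all genes the mean share marked was 1.3% in knockout-Acsl4 and 9.34% in control-GFP. Klf6 was again the only member called in both libraries of control-GFP and neither of knockout-Acsl4, against 1.32% of all genes. Of the 348 genes marked in both control-GFP libraries, 83% had this pattern, so Klf6 did what most such genes did. No member had the reverse, against 0.00457%. The Klf6 pattern rests on its score of 1.98 in control-GFP 2 and is lost when scores of at least 2 are required. With 2 libraries on each side, the smallest two-sided p of an exact permutation test is 0.333, and none is given for the members, since they were chosen with earlier results of these data known.

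A wider list held 47 other immediate early and feedback genes and 24 regulators, the kinases and transcription factors upstream. Of the 47, 27 (57.4%) had a gene-end peak in 1 or more libraries, and of the 24 regulators 16 (66.7%), against 7 of the 10 members and 24.5% of all genes. In control-GFP 2, where Klf4 and Klf6 were marked, 0 of the 47 were, against 2% of all genes, and 3 of the 24 regulators (12.5%). In control-GFP 1, knockout-GFP 1 and knockout-GFP 2 the shares of the 47 were 40.4%, 23.4% and 36.2%. Marked in 4 or more libraries were 3 of the 71, against 1.62% of all genes. They were Rps6ka5, the kinase MSK1 that phosphorylates histone H3 at immediate early genes, in 5 libraries (mean percentile 78.5), Atf2, a CRE-binding partner of Jun, in 4 (70.4), and the stress factor Atf3 in 4 (50.7). Atf2 had the same libraries as Klf6. Atf3 was marked in knockout-Acsl4 2 (percentile 71.1) and Rps6ka5 in knockout-Acsl4 1 (43.7), lists in which no member was marked. In knockout-Acsl4 1, 3 of the 71 were marked (4.23%), against 1.02% of all genes. In knockout-Acsl4 2 it was 2 of the 71 (2.82%), against 1.58%. These counts are too small to set the list apart from the members.

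By comparison, Dusp5, a nuclear phosphatase of ERK, was the only gene of the 71 with a gene-end peak in both knockout-GFP libraries and neither control-GFP library. Over all genes 1.04% had this pattern, so 1 of 71 is near the background and is not a result about Dusp5. Its percentiles were 20.8 and 67.3 in knockout-GFP 1 and 2. None of the 71 had the reverse, against 0.0914% of all genes. Of the 15 marked in both knockout-GFP libraries, 13 (86.7%) were in neither knockout-Acsl4 library, against 87.6% over all genes. These were Klf9, Klf10, Crem, Btg1, Dusp5, Dusp10, Rhob, Trib1, Atf2, Mapk8, Mapk14, Map2k1 and Atf7. Among them Klf9, a hormone-responsive relative of Klf6, had percentiles of 73.1 and 70.1 in knockout-GFP 1 and 2, and Mapk14, the stress kinase p38 alpha, 50.6 and 81.5. Atf2 was also the only one of the 71 with gene-end peaks in control-GFP 1 and 2 but in no knockout-Acsl4 list. Over all genes 1.32% had that pattern, so this count is near the background too. These shares describe the lists, since the genes were chosen with earlier results of these data known.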

How the data were processed

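ATAC-seq marks open DNA by the cuts of the Tn5 transposase, which leaves sequencing adapters there. Per the labels' protocols, libraries were amplified with 12 PCR cycles and sequenced as paired reads of 50 bp. The authors deposited a peak list for each library, with a value per peak and no header. That deposited score was taken to be −log10 of the q-value, since all 6 lists begin just above 1.3, which corresponds to a q of 0.05. Per the submitters' processing notes the tools included BWA 0.7.10 and MACS2 2.1.1, with settings not given. Read depth is unknown, and list length is used in its place, although it does not measure depth. The notes name human builds, but gene ends of mouse GRCm38.p6 held peaks 1.43 to 10.7 times as often as after shifts of 100000 bp in both directions. The lowest value, 1.43, was that of knockout-Acsl4 2. Coordinates were therefore taken as GRCm38 and are 1-based.

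Calls and overlaps (at least 1 bp) used Python 3.11.15, NumPy 2.4.6, pandas 2.3.3 and SciPy 1.17.1, and gene-end calls were tested on simulated lists, in which 200 of 200 planted genes were recovered in 21887. Strand came from the promoter table, which has no entry for 2 members. Members and lists were chosen with earlier results of these data known. Named are all members, list genes marked in 4 or more libraries or in 2 libraries of one group and 0 of another, genes beside a member peak, and Rictor and Acsl4. Named outside this rule are beta cell markers, meant as a check of the tissue, and the Nr4a genes and Srf, chosen after their values were seen. Alternatives were the better 50% of each list, lists cut to the 525 strongest peaks, scores of at least 2, a window of 3000 bp, starts only, 20 kb, an overlap of 50%, pairs of equal replicate number, and omission of single libraries.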

Additional observations from a re-analysis of the deposited data

How the results depend on the processing

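The difference between knockout-GFP and control-GFP had no stable direction. It was 0.5 members as reported, 0 with the better 50% of each list or a window of 3000 bp, -0.5 with lists of 525 peaks, and -1.5 to 2.5 when 1 library was left out. The differences of knockout-Acsl4 from knockout-GFP and control-GFP were negative in every alternative run, at -6 to -2 and -5 to -2 when 1 library was left out. Both knockout-Acsl4 libraries had 0 marked members in each run. From a count of 0 neither difference could turn positive, so the constant direction adds no support. Members called in both libraries of one group, or in the 1 that remained, and in none of the other ranged, over the libraries left out, from 0 to 1 for knockout-GFP against control-GFP, from 1 to 6 for knockout-GFP against knockout-Acsl4 and from 1 to 5 for control-GFP against knockout-Acsl4. The second of these was 0 with lists of 525 peaks and 2 within 20 kb, and the third 0 with the better 50%, with 525 peaks and with scores of at least 2. The cause was not tested.

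Marked members with lists of 525 peaks were 2, 1, 1 and 1 in control-GFP 1 and 2 and knockout-GFP 1 and 2, and the same within 20 kb. With the better 50% of each list control-GFP 2 and knockout-GFP 1 had 1 each, and with scores of at least 2 control-GFP 2 had 1. Within 20 kb, control-GFP 2 had 1 under both settings, and knockout-GFP 2 had 5 with the better 50%. When shared peaks had to overlap by 50% of the shorter one, the Fos promoter and Klf4 regions each counted as 1 library. Alternatives for the 20 kb counts, the wider list and crossed pairs were added after the data were seen.

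The replicate block gave the same mean differences, 0.5, -4 and -3.5. Same-numbered libraries are linked by the number alone, and whether they share a batch is unknown. Over genes the correlation of their deviations was -0.284, -1.55e-05 and 0.0593 for the 3 comparisons. Crossing the pairs of the first gave 0.5, which was likewise fixed in advance. The number of called peaks stands for depth, and an uncalled member is not shown to be closed.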

Other observations

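The 3 orphan nuclear receptor genes of the Nr4a family, which belong to the same rapid response, and Srf were named after their values were seen. Nr4a1, Nr4a2 and Nr4a3 had no gene-end peak in any of the 6 libraries, as was the case for 75.5% of all genes and 28 of the 71 in the wider list, and a peak within 20 kb in 1, 1 and 2 of them. Srf, the factor that binds the CArG box, likewise had no gene-end peak and a peak within 20 kb in 3 libraries. Being unmarked is thus near the background and is not a result about these genes.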
